A study of Saccharomyces cerevisiae with 40 samples.

Results

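The UGA genes of budding yeast, Saccharomyces cerevisiae, let the cell use γ-aminobutyrate (GABA) as a source of nitrogen. They are UGA4 (locus tag YDL210W), which encodes the GABA permease, UGA1 (YGR019W), which encodes GABA transaminase, UGA2 (YBR006W), which encodes succinate semialdehyde dehydrogenase, and UGA3 (YDL170W), which encodes a transcriptional activator of the pathway. They were chosen by gene symbol from the probes of both deposited tables of values, 4 of the 5557 genes that a probe names, and all 4 had enough values to enter the fit. The rule uses no measured value. Each had 2 spots on an array, and these correlated at 0.923 (UGA3) to 0.997 (UGA2) across arrays. No coordinates are given because the sources used here name no genome build.

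Strain Σ1278b was grown in minimum medium with 3% glucose on 1 of 20 nitrogen sources, and RNA from each culture was set against RNA from cells grown on urea. GABA, ammonium (given as ammonium sulfate), alanine, arginine, asparagine, aspartate, citrulline, glutamate, glutamine, isoleucine, leucine, methionine, ornithine, phenylalanine, proline, serine, threonine, tyrosine and valine were supplied at 10 mM, tryptophan at 5 mM and urea at 10 mM. Cells had grown exponentially for at least 10 generations when they were taken at low density, and all groups, urea included, share the strain, the medium and the glucose. Each 2-colour array held polyA RNA from cells on a given source beside that from cells on urea, 2 arrays a source and 40 altogether. Whether a source's 2 arrays were made from different cultures is not in the labels, so the spread behind the p-values is that between arrays and may be technical.

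In the GABA pathway as it is known in yeast, the permease brings GABA in, the transaminase passes its amino group to 2-oxoglutarate to give glutamate and succinate semialdehyde, and the dehydrogenase turns the semialdehyde into succinate, which enters the citric acid cycle. The zinc cluster proteins Uga3 and Dal81 activate the permease and enzyme genes when GABA is present. The GATA factor Dal80 represses genes of this pathway, and Gap1 and Put4, permeases of wider range, can also carry GABA.

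Values are log2 ratios of the nitrogen source over urea. For each source the value on both arrays is given, replicate 1 first, with the value fitted over all 40 arrays and its standard error (n = 2 arrays per source, with a spread shared over sources). A gene is said to have risen or fallen where limma's adjusted p against urea was below 0.05, with Benjamini-Hochberg adjustment over all genes tested on that source, and a source was tested only where both arrays gave a value. The arrays gave values for 3294 to 5218 genes (median 4708), and their number limits the precision. Once turned the same way, both arrays of a source correlated at 0.370 for citrulline to 0.801 for glutamine, and at 0.592 for GABA. The first array of a source differed from the second in dye orientation and in the table it was deposited in, except for tryptophan and tyrosine, which had urea in Cy5 on both. The fit therefore holds a dye term, the part of a gene's ratio that follows the dye on all sources alike. RNA came from whole cultures, so fewer cells expressing a gene and less RNA per cell cannot be told apart.

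On GABA itself, the permease gene and both enzyme genes rose and the activator's gene fell. UGA4 read 3.80 and 5.04 on the 2 GABA arrays, a fitted 4.42 ± 0.18 (SE), which is 21.4-fold over urea (limma, adjusted p = 5.2e-14). UGA2 read 3.51 and 4.19, a fitted 3.85 ± 0.13 or 14.4-fold (limma, adjusted p = 2.2e-17). UGA1 read 3.53 and 3.59, a fitted 3.56 ± 0.18 or 11.8-fold (limma, adjusted p = 7.0e-14).

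These 3 genes held the first 3 places among the 4108 genes tested on GABA, UGA4 highest, then UGA2, then UGA1. Of all genes tested on GABA, 21.2% passed the threshold, 10.2% higher and 11% lower than on urea. UGA3 read -0.96 and -1.25 on the same arrays, a fitted -1.10 ± 0.14, which is 2.15-fold lower than on urea (limma, adjusted p = 5.3e-06), and it stood at place 4052. All 4 calls held when either GABA array was left out, UGA3 with an adjusted p of 0.00918 without the second array, and under the other settings that gave a value. Both arrays of each gene lay on the same side of 0, and UGA4's were the farthest apart.

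**Figure D1:**
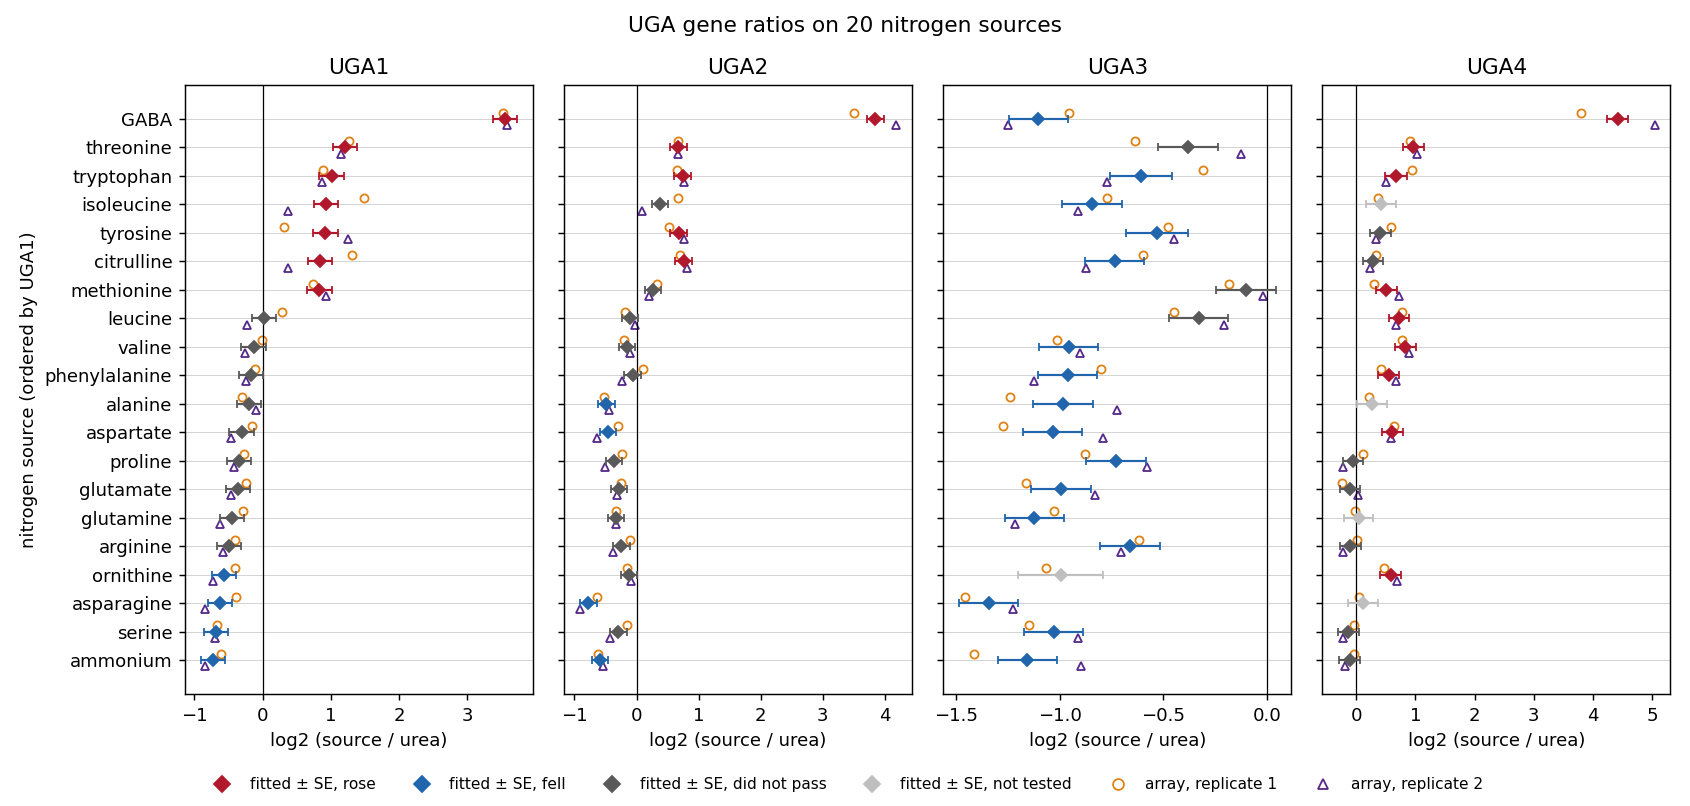
Log2 ratio of source over urea (horizontal axis) for UGA1, UGA2, UGA3 and UGA4 on 20 nitrogen sources, ordered by UGA1; the open symbols are single arrays and the diamonds are fitted values with their standard error, coloured by the call. UGA1, UGA2 and UGA4 stand apart on GABA, at 3.56, 3.85 and 4.42, whereas UGA3 lies below 0 on all sources and is lowest on asparagine, at -1.34.

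UGA4, the permease gene, rose on 9 of the 16 sources on which it could be tested and fell on none; 6.56% of the genes in the fit rose on at least 9 sources. After GABA came threonine, with arrays at 0.91 and 1.02 and a fitted 0.96 ± 0.18 (limma, adjusted p = 0.000543). Valine followed, with arrays at 0.77 and 0.90 and a fitted 0.83, and then leucine, with arrays at 0.77 and 0.67 and a fitted 0.72. All 4 arrays of valine and leucine lay above 0.6.

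The other rises of UGA4 were smaller. On tryptophan the arrays read 0.95 and 0.51 (fitted 0.67), on aspartate 0.64 and 0.58 (fitted 0.61), on ornithine 0.46 and 0.70 (fitted 0.58), on phenylalanine 0.43 and 0.67 (fitted 0.55) and on methionine 0.30 and 0.72 (fitted 0.51). All these arrays were above 0. UGA4 did not pass on tyrosine (0.59 and 0.34), citrulline (0.33 and 0.24), proline (0.12 and -0.22), arginine (0.01 and -0.21), glutamate (-0.24 and 0.03), ammonium (-0.04 and -0.19) or serine (-0.03 and -0.22). Isoleucine, alanine, asparagine and glutamine gave a value on 1 array only, 0.37, 0.22, 0.06 and -0.01, and were not tested.

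Apart from the call on GABA, the call of UGA4 on threonine was the only 1 of the 9 that held whichever array of its source was left out. The calls on valine, leucine, aspartate, ornithine, phenylalanine and methionine were lost whichever array was left out and that on tryptophan without the first, where its value was 0.45. Without the dye term the calls on methionine (adjusted p = 0.0686) and phenylalanine (adjusted p = 0.0598) were lost in the limma fit. Fitted on the arrays of their source alone, the calls on methionine, ornithine and tryptophan were lost (adjusted p of 0.0849, 0.0630 and 0.0955), and with array weights that on tryptophan (adjusted p = 0.142).

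UGA1, the transaminase gene, rose on 7 of 20 sources and fell on 4; 9.56% of genes rose on at least 7 sources, 15.2% fell on at least 4 and 8.49% passed in both directions on different sources. Threonine came second after GABA, with arrays at 1.27 and 1.15 and a fitted 1.21 ± 0.18, or 2.32-fold (limma, adjusted p = 3.3e-05). Tryptophan came next, with both arrays at 0.88 and a fitted 1.01 ± 0.18 (limma, adjusted p = 0.000316); its fitted value lies above both arrays because the dye term, estimated from the other sources, was taken off. On methionine the arrays read 0.74 and 0.93, a fitted 0.83.

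On 3 more sources UGA1 rose although the arrays differed widely. Isoleucine read 1.49 on the first array and 0.37 on the second (fitted 0.93), citrulline 1.32 and 0.38 (fitted 0.85), and tyrosine 0.31 and 1.26 (fitted 0.92). The 2 spots of UGA1 were also farthest apart, by 0.379, on the second isoleucine array. Between these rises and the falls lay 9 sources that did not pass, with fitted values from 0.02 on leucine (arrays 0.28 and -0.23) through -0.13 on valine, -0.17 on phenylalanine, -0.20 on alanine, -0.31 on aspartate, -0.34 on proline, -0.35 on glutamate and -0.45 on glutamine to -0.49 on arginine.

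The falls of UGA1 were on ammonium, serine, asparagine and ornithine. The arrays read -0.61 and -0.85 on ammonium (fitted -0.73), -0.67 and -0.70 on serine (fitted -0.68), -0.39 and -0.85 on asparagine (fitted -0.62) and -0.40 and -0.73 on ornithine (fitted -0.56). All 8 of these arrays were below 0. Of the 11 calls of UGA1, 3 (GABA, threonine and tryptophan) held whichever array of their source was left out. Each of the 4 falls was lost whichever array was left out, the rises on isoleucine (0.48) and citrulline (0.49) without the first, and those on tyrosine (0.44) and methionine (0.59) without the second. Without the dye term the falls on asparagine (adjusted p = 0.0512) and ornithine (adjusted p = 0.0926) were lost in the limma fit, and with the arrays of the source alone the calls on citrulline (0.462), isoleucine (0.450) and ornithine (0.0796).

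UGA2, the dehydrogenase gene, rose on 5 of 20 sources and fell on 4; 13.9% of genes rose on at least 5 sources. It read 0.70 and 0.81 on citrulline (fitted 0.76 ± 0.13), 0.65 and 0.77 on tryptophan (fitted 0.74), 0.52 and 0.77 on tyrosine (fitted 0.68) and 0.67 on both arrays on threonine (fitted 0.67). On all these sources UGA1 rose too. UGA2 did not pass on the other sources with a rise of UGA1, isoleucine (0.67 and 0.08, fitted 0.38, adjusted p = 0.0745) and methionine (0.33 and 0.19, fitted 0.26), and whether the genes differ there was not tested.

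UGA2 fell on asparagine, with arrays at -0.64 and -0.91 (fitted -0.77), ammonium, at -0.63 and -0.54 (fitted -0.59), alanine, at -0.53 and -0.44 (fitted -0.49), and aspartate, at -0.30 and -0.63 (fitted -0.46). The other 9 sources that did not pass ran from -0.06 on phenylalanine through -0.10 on leucine, -0.12 on ornithine, -0.15 on valine, -0.24 on arginine, -0.28 on glutamate, -0.29 on serine and -0.33 on glutamine to -0.37 on proline. UGA2 had the smallest standard error of the 4 genes, and 3 of its 9 calls, on GABA, tryptophan and asparagine, held whichever array of their source was left out. The call on ammonium was lost without the first array, those on threonine (adjusted p = 0.0505), citrulline, tyrosine and aspartate without the second, and that on alanine whichever was left out. Without the second isoleucine array the value there was 0.65 and passed (limma, adjusted p = 0.0410). With the arrays of the source alone the calls on citrulline (adjusted p = 0.243), alanine (0.111), tryptophan (0.0652) and ammonium (0.0549) were lost.

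UGA3, the activator's gene, fell on 16 of the 19 sources on which it could be tested and rose on none. Only 35 of the 4332 genes in the fit, 0.808%, fell on at least 16 sources. The same urea condition stands below every one of these ratios, so the falls are not separate from each other. Asparagine was lowest, with arrays at -1.46 and -1.23 and a fitted -1.34 ± 0.14 or 2.54-fold below urea (limma, adjusted p = 1.3e-07).

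UGA3 was nearly as low on ammonium (arrays -1.41 and -0.90, fitted -1.16), glutamine (-1.03 and -1.21, fitted -1.12), GABA (-1.10), aspartate (-1.28 and -0.79, fitted -1.03) and serine (-1.15 and -0.91, fitted -1.03). Its 2 spots were farthest apart, by 0.534, on the second aspartate array. Just above these came glutamate (-1.16 and -0.83, fitted -0.99), alanine (-1.24 and -0.72, fitted -0.98), phenylalanine (-0.80 and -1.12, fitted -0.96), valine (-1.01 and -0.90, fitted -0.96) and isoleucine (-0.77 and -0.91, fitted -0.84). All arrays of these sources were below -0.70, and the arrays of neighbouring sources overlap.

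Smaller falls of UGA3 were seen on citrulline (-0.60 and -0.87, fitted -0.73), proline (-0.88 and -0.58, fitted -0.73), arginine (-0.62 and -0.70, fitted -0.66), tryptophan (-0.31 and -0.77, fitted -0.61) and tyrosine (-0.47 and -0.45, fitted -0.53). UGA3 did not pass on threonine (-0.63 and -0.12, fitted -0.38), leucine (-0.45 and -0.21, fitted -0.33) or methionine (-0.18 and -0.02, fitted -0.10), and ornithine gave a value on 1 array only, -1.06. Of its 16 calls, 10 held whichever array of their source was left out. The fall on proline was lost without the first array, those on citrulline, isoleucine, arginine and tryptophan without the second, and that on tyrosine whichever was left out and without the dye term (adjusted p = 0.0713). With the arrays of the source alone the falls on citrulline (adjusted p = 0.290), arginine (0.236), isoleucine (0.179), tryptophan (0.168) and tyrosine (0.150) were lost, and with array weights those on tryptophan (0.0772) and tyrosine (0.119).

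Seen by source, threonine and tryptophan were the only sources besides GABA on which UGA1, UGA2 and UGA4 all rose, against 12.7% and 10.3% of all genes tested there that rose. UGA4 was not tested on isoleucine, alanine, asparagine or glutamine, nor UGA3 on ornithine. UGA1 and UGA2 rose on citrulline and tyrosine (5.25% and 8.43% of genes), and UGA1 and UGA4 on methionine (12.7%). On isoleucine UGA1 rose (5.73%) and UGA2 did not pass. UGA4 alone rose on valine (9.48%), leucine (10.4%), aspartate (11.3%), ornithine (10.5%) and phenylalanine (10.6%). On asparagine and ammonium UGA1, UGA2 and UGA3 all fell, where 14.7% and 10.7% of genes fell.

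UGA3 fell with UGA2 on alanine (12.1% of genes fell) and aspartate (10.1%), and with UGA1 on serine (11.3%), and on ornithine UGA1 fell (10.1%). On glutamate, glutamine, arginine and proline UGA3 fell and no other member tested there passed (9.87%, 12.9%, 8.91% and 7.61% of genes fell). UGA4 was not tested on glutamine. UGA3 also fell on isoleucine (3.76%), citrulline (4.87%), tyrosine (6.62%), valine (6.87%), tryptophan (8.43%) and phenylalanine (9.8%). UGA1 and UGA2 rose together on 5 sources, fell together on 2 and never passed in opposite directions. UGA1 and UGA4 rose together on 4 of the 16 sources where both were tested, and on ornithine UGA1 fell while UGA4 rose.

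An F-test asked whether a gene departed from urea on at least 1 source with values on both arrays. Such sources numbered 20 for UGA1 and UGA2, 19 for UGA3 and 16 for UGA4. F values and places are therefore not strictly comparable between genes. The test passed for 63.5% of the genes in the fit. All 4 members passed, UGA2 with F = 54.4 at place 18 of 4332, UGA4 with F = 48.0 at place 27, UGA3 with F = 37.3 at place 61 and UGA1 with F = 32.7 at place 81 (limma, adjusted p of 1.93e-11 for UGA1 and 1.35e-11 for UGA3).

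The level on GABA was then compared with that on each other source directly, a contrast in which the shared urea reference cancels. UGA1 was higher on GABA than on all 19 others, by 2.35 (threonine) to 4.29 (ammonium) on the log2 scale. UGA2 was likewise higher than on all 19, by 3.09 (citrulline) to 4.62 (asparagine), and UGA4 than on all 15 it could be tested against, by 3.45 (threonine) to 4.55 (serine). The highest adjusted p among these 53 contrasts was 6.2e-07 in the limma fit. Few genes of any kind were higher on GABA in such contrasts. The share was under 1% against aspartate (0.287%), ammonium (0.42%), valine (0.509%), alanine (0.523%), arginine (0.567%), proline (0.831%), glutamate (0.9%), leucine (0.912%) and asparagine (0.981%). Against serine and threonine it was 1.14% each, against ornithine 1.17%, glutamine 1.25%, citrulline 1.46%, isoleucine 1.62%, methionine 2.52%, phenylalanine 3.02%, tyrosine 3.73% and tryptophan 5.16%.

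UGA3 on GABA was set against 18 sources and was lower than on 3 of them, methionine by -1.0 ± 0.20 (limma, adjusted p = 0.00191), leucine by -0.77 (adjusted p = 0.0308) and threonine by -0.72 (adjusted p = 0.0370). Of all genes tested 5.27%, 2.66% and 3.8% were lower in these contrasts. These 3 are the sources on which UGA3 did not fall against urea. Without the second GABA array none of the 18 contrasts passed, without the first 4 did, and without the dye term 1 did.

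**Figure D2:**
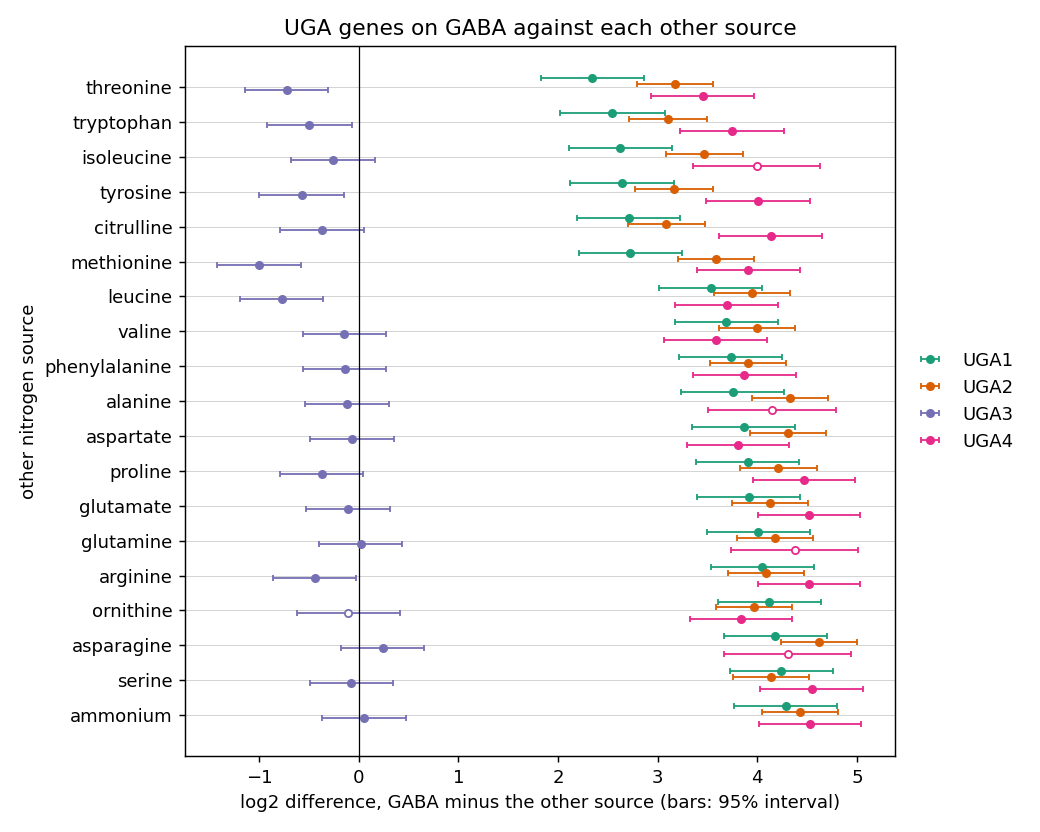
Difference in fitted log2 ratio between GABA and each other source (horizontal axis), with 95% intervals, for the 4 UGA genes; open points are pairs that were not tested because 1 array lacked a value. The differences of UGA1, UGA2 and UGA4 all lie above 2.3, and those of UGA3 lie between -1.0 and 0.24.

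Glutamate is the source closest to GABA in structure, since GABA is glutamate without its α-carboxyl group. UGA4 was 4.52 ± 0.25 higher on GABA than on glutamate, UGA2 4.13 ± 0.19 and UGA1 3.91 ± 0.25 (limma, highest adjusted p = 2.1e-11). Only 41 of 3443 genes, 1.19%, passed in this contrast, and these 3 were the 3 highest. Next came CIT2, the peroxisomal citrate synthase, at 3.00 ± 0.29, and GDH2, the NAD-dependent glutamate dehydrogenase, at 2.66 ± 0.31. Against urea, CIT2 was fitted at 0.86 on GABA and -2.14 on glutamate, so most of its difference lay on glutamate. GDH2 was fitted at 2.23 and -0.43.

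Genes lower on GABA than on glutamate were led by SIT1, a siderophore transporter (-1.48), ENA2, a sodium pump (-1.19), WSC4 (-1.08), HXT3, a hexose transporter (-1.03), and RNR4, a ribonucleotide reductase subunit (-0.95). UGA3 was not among them. Its difference was -0.11 ± 0.20 (limma, adjusted p = 0.894), with a 95% interval, not adjusted over genes, from -0.53 to 0.31. With 2 arrays per source a difference within that interval remains possible. The interval is not a limit of detection, since a difference beyond it could also miss the adjusted threshold. Without the second GABA array the difference was 0.12 and without the first -0.34.

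The sources were also ordered by the level of each gene, and neighbours in the order were compared. The order comes from the same fitted values, so neighbours are close by construction and a step that did not pass says little. Steps tested numbered 19 each for UGA1 and UGA2, 17 for UGA3 and 13 for UGA4. For UGA1, UGA2 and UGA4 the step from GABA to the next source passed and no other tested step did. For UGA3 no tested step passed. Among pairs of sources without GABA, 73 of 171 passed for UGA1 (42.7%) and 70 of 171 for UGA2 (40.9%), but 19 of 153 for UGA3 (12.4%) and 8 of 105 for UGA4 (7.62%). Over all genes and all 190 pairs 4.2% of contrasts passed.

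Across sources, the 2 enzyme genes had the most alike patterns of the 4. Correlations of fitted values are descriptions over sources that share the urea reference, the dye term and, within a source, both arrays. UGA1 and UGA2 correlated at Pearson r = 0.957 over 20 sources and at 0.924 (Spearman 0.809) over the 19 without GABA. Without threonine and tryptophan as well r was 0.894.

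UGA4 correlated with UGA1 at 0.864 over 16 sources, but at 0.560 over the 15 without GABA, and with UGA2 at 0.919 and 0.477. By Pearson r its likeness to the enzyme genes therefore rested largely on the GABA value. Its Spearman correlations changed less without GABA, from 0.718 to 0.657 with UGA1 and from 0.541 to 0.443 with UGA2. UGA3 correlated with UGA1 at 0.269 over 19 sources, and at 0.698 over the 18 without GABA. With UGA2 the values were 0.121 and 0.664.

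**Figure D3:**
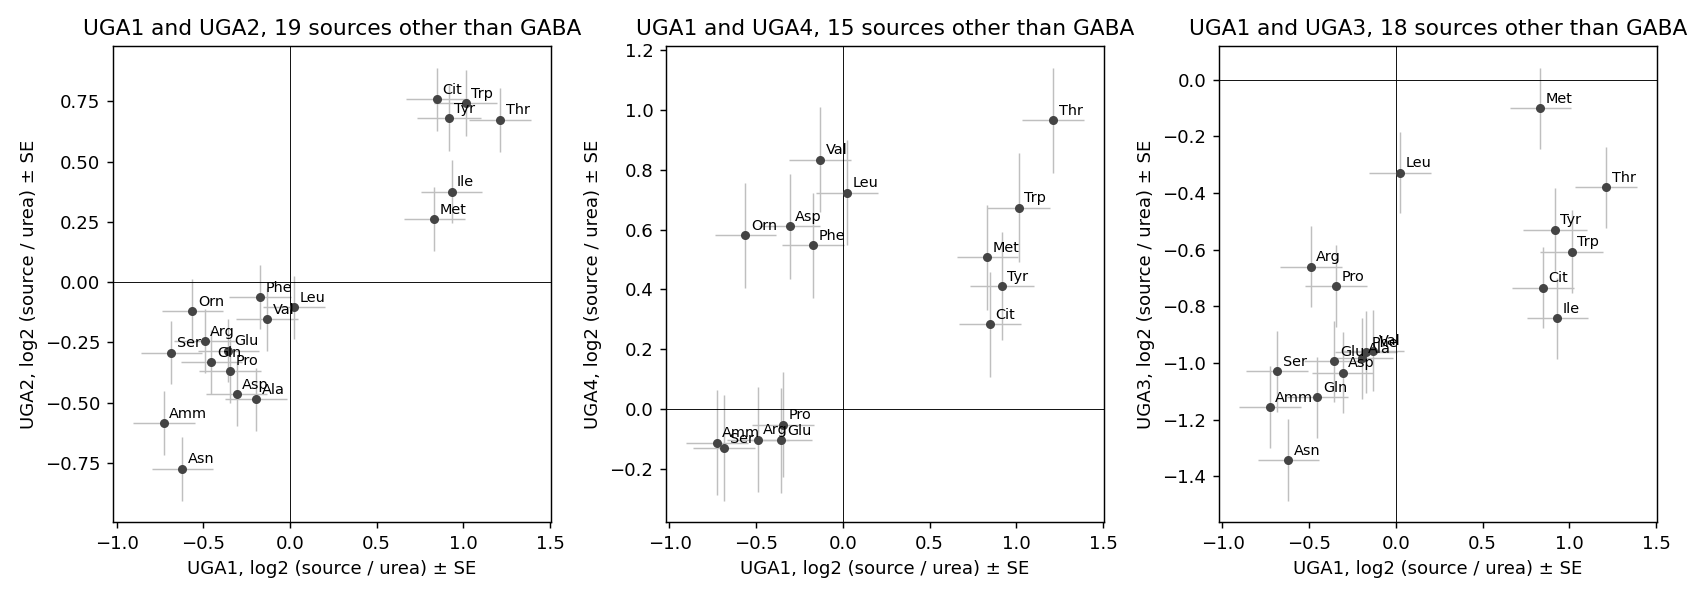
Fitted log2 ratio of UGA1 (horizontal axes) against UGA2, UGA4 and UGA3 (vertical axes) on sources other than GABA, with standard errors; each point is a source, named by the amino acid's short form or Amm for ammonium. UGA2 follows UGA1 (r = 0.924), whereas for UGA4 valine, leucine, ornithine, aspartate and phenylalanine lie high at UGA1 values near or below 0 (r = 0.560).

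The genes most like each member were then looked up among genes in the fit, over shared sources with values on both arrays. At least 15 such sources were required, and 14 where GABA was left out. Genes that could be compared numbered 3587 each for UGA1 and UGA2, 3422 for UGA3 and 2373 for UGA4. Without GABA they numbered 3615, 3440 and 2413. For UGA1 over all sources with values the nearest genes were UGA2, AMD2, a putative amidase (r = 0.913), UGA4, BDH1, a butanediol dehydrogenase (0.772), and YJR149W (0.763). BDH1 and YJR149W were not tested on GABA, so their values, over 19 and 18 sources, hold no GABA point. Without GABA the nearest to UGA1 were GTO1, a glutathione transferase (0.926), QDR3, a membrane transporter (0.925), UGA2 (0.924), AMD2 (0.922) and BUL2, a partner of the Rsp5 ubiquitin ligase (0.915).

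GTO1, QDR3 and BUL2 did not share the rise on GABA, where their fitted values were -0.71, -0.05 and -0.39. AMD2 did rise there, at 1.81 ± 0.14 (limma, adjusted p = 1.0e-09), and it rose on 5 sources and fell on 9. For UGA2 the nearest genes other than the members were AMD2 (0.841), BDH1 (0.741, with no GABA point) and ECO1, a cohesion factor (0.736), over all sources with values, and GTO1 (0.936), QDR3 (0.920), AMD2 (0.911) and SIT1 (0.905) without GABA. ECO1's correlation without GABA was 0.142. SIT1 fell on GABA, by 1.31.

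The likeness of other genes to UGA3 barely depended on GABA. Nearest with GABA were ORT1, a mitochondrial ornithine carrier (0.889), TEA1, a zinc cluster protein (0.887), ASN1, an asparagine synthetase (0.884), YMC1, a mitochondrial carrier (0.877), and CEM1, a mitochondrial fatty acid synthase component (0.875), and without GABA the same 5 led at 0.872 to 0.908. ASN1 rose on 13 of 20 sources and on GABA stood at 0.59, so likeness in pattern did not mean likeness in level.

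For UGA4 with GABA the nearest genes after UGA2 and UGA1 were the ribosomal protein genes RPS9B (0.828), RPL7A (0.733) and RPS22A (0.720), whose correlations without GABA were 0.046, 0.381 and 0.369. Without GABA the nearest were HAB1 (0.790), GDH1, the NADPH-dependent glutamate dehydrogenase (0.770), TEF1, a translation elongation factor (0.767), SPO75 (0.767) and SHH4 (0.760), each over 14 or 15 sources.

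The other genes of GABA use were read on GABA in 3 lists. Of 9 genes of uptake, synthesis and regulation 7 were tested, none rose and 4 fell, with a median of -0.45 against a median of -0.0039 over all genes. Of all genes tested on GABA, 10.2% rose and 11% fell. GAP1, the general amino acid permease, read -2.08 and -1.15 on the GABA arrays (fitted -1.61 ± 0.38, limma, adjusted p = 0.00320), and DAL80, the repressor's gene, -1.32 and -1.57 (fitted -1.44 ± 0.27, adjusted p = 0.000484).

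The genes of the GATA factors Gzf3 and Gat1 fell less. GZF3 read -0.49 and -0.73 (fitted -0.61) and GAT1 -0.19 and -0.71 (fitted -0.45). Across sources GZF3 fell on all 17 tested and GAT1 on 10 of 20. PUT4 (0.07), GLN3 (-0.11) and URE2 (0.10) did not pass. The call on GAP1 was lost without the first GABA array, that on DAL80 without the second, and that on GAT1 whichever was left out, without the dye term (adjusted p = 0.298) and with a replicate block, which replaces the dye term by the replicate number (adjusted p = 0.0801).

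DAL80 and GAP1 were also read across sources beside the members. DAL80 fell on 15 of the 19 sources tested, most on asparagine (-5.45), glutamine (-3.77), serine (-3.46), ammonium (-2.55) and alanine (-2.47). GAP1 fell on 7 of 20, most on asparagine (-4.19), glutamine (-3.65) and serine (-3.26). Of the sources named here for DAL80, UGA4 was tested only on serine (fitted -0.13) and ammonium (fitted -0.11), and did not pass. On asparagine, glutamine and alanine it had 1 array each, at 0.06, -0.01 and 0.22. Whether the level of DAL80 or GAP1 bears on that of UGA4 was not tested. Without GABA, DAL80 correlated over sources at 0.622 with UGA1, 0.661 with UGA2 and 0.676 with UGA3 (n = 18 each), and at 0.465 with UGA4 (n = 14), the last being -0.01 without serine and ammonium.

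Of 9 genes that handle the products of the pathway 8 were tested on GABA, 1 rose and 4 fell, with a median of -0.41. The shares over all genes tested were 10.2% and 11%. GDH2, which releases ammonium from glutamate, rose, with arrays at 2.26 and 2.20 (fitted 2.23 ± 0.22, limma, adjusted p = 8.7e-08). The rise was not particular to GABA. GDH2 rose on 11 of 20 sources and fell on 2, with fitted values of 2.73 on isoleucine and 2.31 on tyrosine. Of the genes of glutamate synthesis, GDH1 fell, with arrays at -1.50 and -1.51 (fitted -1.51 ± 0.15), and GLT1, the glutamate synthase, fell, with arrays at -1.08 and -1.60 (fitted -1.34 ± 0.17). Across sources GDH1 fell on 11 of the 19 tested and GLT1 on 17 of 20.

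Succinate dehydrogenase takes up the succinate that UGA2's enzyme makes. Of its subunit genes SDH4 (-0.54) and SDH3 (-0.47) fell, and SDH1 (-0.23) and SDH2 (0.22) did not pass; whether the subunits differ was not tested. GLN1, the glutamine synthetase (-0.35), did not pass either. The falls of SDH3 and SDH4 were lost whichever GABA array was left out and without the dye term (adjusted p of 0.0732 and 0.0542).

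Of 9 other genes known to need Dal81, 7 were tested, 2 rose and 4 fell on GABA, with a median of -0.85. The shares over all genes tested were 10.2% and 11%. The genes of urea and allantoin use fell, DUR3, the urea permease, by 2.87 (arrays -2.44 and -3.29), DAL4, the allantoin permease, by 2.75 (-2.13 and -3.37), DAL7, a malate synthase, by 1.99 (-1.53 and -2.45) and DAL2, the allantoicase, by 0.85 (-0.693 and -0.998). Urea, the reference, is the substrate of DUR3's permease, and DUR3 fell on all 20 sources. DAL2, DAL4 and DAL7 each fell on 19 of 20. The amino acid permease genes BAP2 (arrays 1.13 and 2.55, fitted 1.84 ± 0.48) and TAT1 (0.58 and 0.91, fitted 0.75 ± 0.25) rose, and AGP1 (0.88 and 0.23, fitted 0.56) did not pass. Across the sources tested BAP2 rose on 16 of 17, TAT1 on 11 of 18 and AGP1 on 17 of 19.

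The calls on BAP2, TAT1 and DAL2 were lost without the second GABA array. The call on TAT1 was also lost without the dye term (adjusted p = 0.126) and with the replicate block (adjusted p = 0.0588). GAD1, GDH3 and BAP3 had values on 25, 25 and 26 arrays, fewer than the 30 required, and DAL81 and DUR1,2 were not analysed here.

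**Figure D4:**
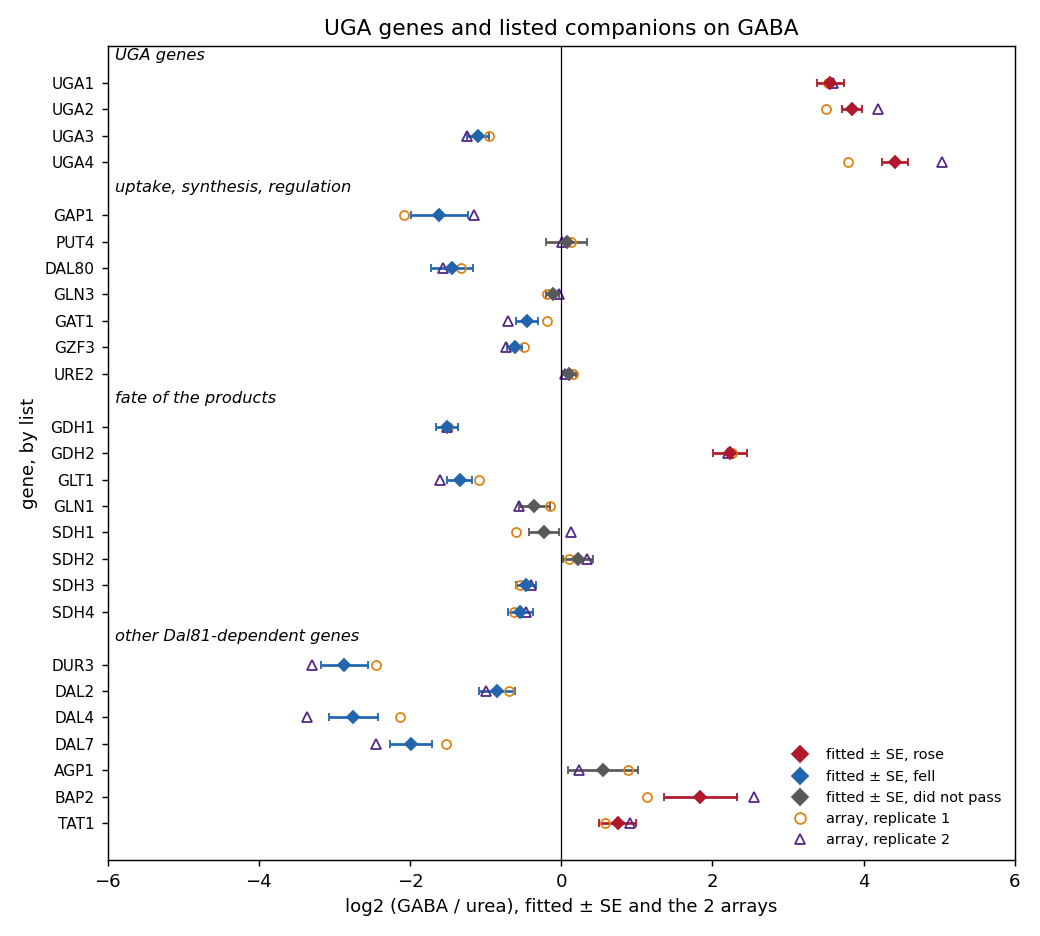
Log2 ratio of GABA over urea (horizontal axis) for the UGA genes and 3 lists of related genes; open symbols are the 2 arrays and diamonds are fitted values with standard errors, coloured by the call. UGA1, UGA2 and UGA4 lie beyond 3.5, the next highest is GDH2 at 2.23, and the lowest is DUR3 at -2.87.

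The genes beside the members on the chromosome were looked up by their order in the RefSeq annotation of strain S288C. UGA3 lies between GLT1 and UGX2, and both fell on GABA as UGA3 did, GLT1 to -1.34 and UGX2 to -1.27 ± 0.20 (limma, adjusted p = 9.3e-05). GLT1 fell on 17 of 20 sources and UGX2 on 9 of 15. Over sources UGA3 correlated with GLT1 at 0.766 (n = 19) and with UGX2 at 0.620 (n = 15).

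The neighbours of the genes that rose on GABA did not pass there. RCR1 (0.07 ± 0.16) and DSF2 (0.11 ± 0.12) beside UGA2 and CWC2 (-0.01 ± 0.11) beside UGA4 lay near 0. The other neighbours of UGA1 and UGA4 had no fit. Where each probe lies within its gene was not used here, and whether a probe of a gene also read its neighbour's transcript was not tested.

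**Figure D5:**
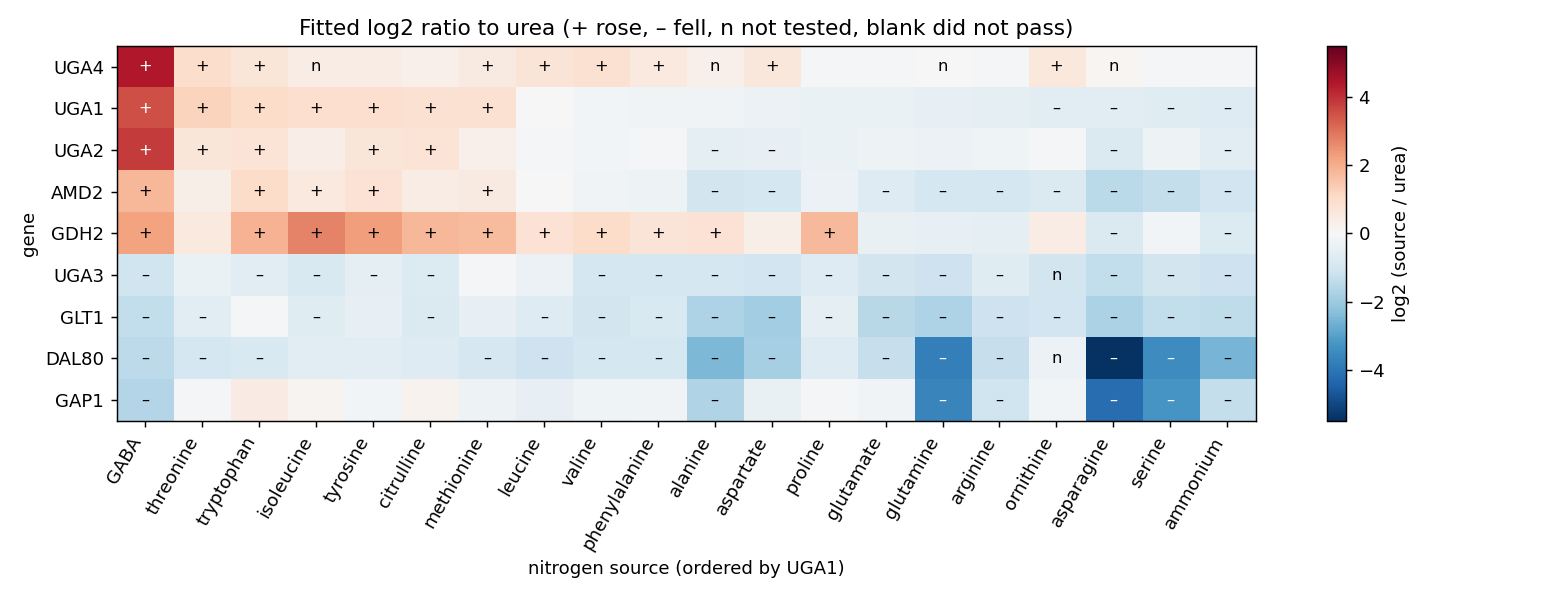
Fitted log2 ratio of source over urea (colour, red higher and blue lower) for the UGA genes, AMD2, GDH2, GLT1, DAL80 and GAP1 on 20 sources ordered by UGA1; the marks in the cells give the call. The UGA1, UGA2 and AMD2 rows turn from red to blue in the same part of the order, the UGA3 and GLT1 rows are blue or near 0 throughout, and DAL80 reaches -5.45 on asparagine.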

How the data were processed

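The authors deposited 1 value per spot and array, in 2 tables, as centred log2 ratios of Cy5 over Cy3, base 2 being an assumption since no base is stated. Not given in the sources used here are the scanner, the background correction, the normalization, any filter, and whether both tables were normalized in 1 run. Array medians over genes lay between -0.0102 and 0.0108. Direction was taken from the dyes in the labels. Either table lists 12800 probes, and those naming exactly 1 gene (10890 and 11188) were used, with the spots of a gene averaged and ratios turned to source over urea. Missing spots ranged from 15.3 to 39.4% (arrays with the source in Cy5) and from 21.8 to 53.2% (source in Cy3).

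The fit took the 4332 genes that had values on 30 or more of the 40 arrays. Its terms were each source, signed by dye, and an intercept for the dye, moderated as in limma 3.58.1 (R 4.3.3), with two-sided tests and Benjamini-Hochberg adjustment over genes within each source or contrast at 0.05. The prior degrees of freedom came to 6.27 and the median residual SD to 0.168. Missing values were left missing. The fit was tested on simulated data. Figures were drawn with matplotlib 3.10.9 in Python 3.11.15, from tables made with pandas 2.3.3 and numpy 2.4.6.

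For 18 sources the deposited table, the dye orientation and the replicate number are the same split of the arrays and cannot be told apart. Replicate numbers come from the labels. The difference between replicates correlated above 0.1 between any pair of these sources (153 pairs, lowest 0.127, median 0.440). Because the dye and the table change along with the replicate number, this does not show that the numbers pair the arrays. One alternative put the replicate number in as a block and took the dye term out. The others dropped the dye term, subtracted array medians, changed the minimum number of arrays, took spot medians, weighted arrays, used only a comparison's own arrays, or left out an array. The members and gene lists were chosen with earlier results of these data known. Named genes were the members on every source, listed genes past the threshold on GABA, DAL80 and GAP1 across sources, the 5 genes most like each member with and without GABA, and the 5 highest and 5 lowest of GABA minus glutamate. Other listed genes are named to account for the lists, and chromosome neighbours by position.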

Additional observations from a re-analysis of the deposited data

Results flagged for a closer look

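Apart from GABA, each UGA gene differed between its highest and its lowest tested source by a contrast in the same fit. The sources were picked as the extremes of the gene's own order, so the adjusted p, taken over genes, does not account for that choice. UGA1 was 1.94 ± 0.25 higher on the log2 scale on threonine (1.21) than on ammonium (-0.73), with an adjusted p of 2.0e-05 in the limma fit. UGA2 was 1.53 ± 0.19 higher on citrulline (0.76) than on asparagine (-0.77; adjusted p = 1.7e-06 in limma). UGA3 was 1.24 ± 0.20 higher on methionine (-0.10) than on asparagine (-1.34; adjusted p = 0.000111 in limma). UGA4 was 1.09 ± 0.25 higher on threonine (0.96) than on serine (-0.13; adjusted p = 0.0109 in limma). For each gene both arrays of the highest source lay above both of the lowest, which the choice of extremes favours. For UGA1, threonine read 1.27 and 1.15 and ammonium -0.61 and -0.85.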

How the results depend on the processing

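The calls of the 4 UGA genes on GABA, and the GABA minus glutamate differences of UGA1 (3.74 to 4.09 with each array left out), UGA2 (3.73 to 4.53) and UGA4 (3.91 to 5.13), kept their direction and their side of the threshold under every setting that gave a value; with values required on all 40 arrays UGA3 and UGA4 had no fit. That of UGA3, which did not pass, ranged from -0.34 to 0.12 with an array left out. With each array left out, all genes called on GABA ranged from 213 to 907 (869 with all arrays), the sources on which UGA3 exceeded GABA from 0 to 4, the falls on GABA in the uptake and regulation list and in the product list from 2 to 4 each, and the rises in the other Dal81-dependent list from 0 to 2. Without the dye term, UGA1 fell on 2 sources (4 with it), UGA3 exceeded GABA on 1 (3), 479 genes passed on GABA, 2 product genes fell (4) and 1 Dal81-dependent gene rose (2). With the replicate block 1 Dal81-dependent gene rose, and besides GAT1 and TAT1 on GABA the block changed no call among the values reported for the UGA genes and their lists. On the 18 sources with both dye orientations the block and the dye term are the same split of the arrays. The 2 fits differ only in how they treat tryptophan and tyrosine, so little change was possible. With all 40 arrays required, only 1256 genes stayed in the fit, of which 317 passed on GABA. In that fit 2 uptake and regulation genes fell and no Dal81-dependent gene rose. DAL80, GZF3, BAP2 and TAT1 lacked values on some arrays and had no fit there, so these are not lost calls. With array weights UGA2 fell on 7 sources (4) and 2 neighbouring steps of UGA1 passed (1), while UGA4 lost its call on tryptophan and UGA3 those on tryptophan and tyrosine. With only the arrays of the source 282 genes passed on GABA, and 15 calls of the UGA genes on other sources were lost. With tryptophan and tyrosine left out, an alternative chosen after seeing the data, UGA2 rose on 3 sources (5), fewer sources being tested. With 1 array of their source left out, 10 values that had not passed changed sign, PUT4 (-0.013 to 0.16) and SDH1 (-0.50 to 0.035) on GABA, UGA1 on leucine (-0.11 to 0.16) and alanine (-0.45 to 0.057), UGA2 on leucine (-0.23 to 0.020) and phenylalanine (-0.20 to 0.074), and UGA4 on serine (-0.29 to 0.031), ammonium (-0.25 to 0.027), arginine (-0.28 to 0.080) and proline (-0.29 to 0.19). The cause of these changes was not tested. With 2 arrays per source, most calls of less than 1 on the log2 scale rest on both arrays, and signal over background could not be read from ratios.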
